A study of Homo sapiens with 6 samples.

Results

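The integrated stress response and ATF4 target genes were followed as a set of 36 genes on the arrays of 2 human osteosarcoma cell lines. Its members were named for the pathway, with no threshold on any difference but with earlier results of these data known. It was measured by 69 probe sets assigned to 1 gene, of which 49 had a highest value over 6.64 on the log2 scale, a signal of 100, on the 6 arrays. These belonged to 35 of the 36 genes, out of 8878 genes above that limit and 19775 genes on the array. The remaining gene, SLC6A9, a glycine transporter, reached only 2.48. Just inside the limit was CHAC1, with a highest value of 6.81. Just outside it were further probe sets of PSPH, ATF5 and MTHFD2, with highest values of 6.36, 6.33 and 6.26. All 3 of these genes had a brighter probe set above the limit.

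KHOS and U-2OS cells were each left untransfected, given nonspecific siRNA or given siRNA against CDK11, a cyclin-dependent kinase with roles in transcription, splicing and mitosis. Both siRNAs were used at 40 nM, and the methods give 48 h. Each array held the pooled RNA of 3 flasks, with 1 array per line and condition and no replicate within a line. Untransfected cells did not go through the transfection, so that the siRNA and the transfection itself cannot be told apart in any comparison with them. The CDK11 siRNA left 20.6% of the signal of the brightest CDK11A and CDK11B probe set in KHOS and 16.0% in U-2OS, relative to nonspecific siRNA. Array medians lay between 2.92 and 2.98. Of 8 osteoblast lineage markers with a probe set, RUNX2, COL1A1 and SPARC were above the limit, the collagen and SPARC at 11.69 to 13.10. RUNX2 stood at 9.51, 9.60 and 10.24 in KHOS and at 7.03, 4.39 and 5.68 in U-2OS for untransfected, nonspecific and CDK11 siRNA, and its part in the results was not tested. SP7, ALPL, IBSP and COL1A2 stood at 2.19 to 3.001, near the array medians, and SPP1 was below the limit. Of 5 epithelial markers, EPCAM and KRT8 were above the limit on at least 1 array, and CDH1, KRT5 and KRT19 stood below the array medians, at 1.93 to 2.38, while the 4 blood markers stood at 1.81 to 2.997.

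The integrated stress response is a brake on translation. Kinases that sense amino acid shortage, misfolded protein in the endoplasmic reticulum, double-stranded RNA or heme shortage phosphorylate the initiation factor eIF2, which slows translation in general but favours that of the mRNA of ATF4. ATF4, a bZIP transcription factor, then raises genes for amino acid synthesis and uptake, further stress transcription factors such as DDIT3 (CHOP) and ATF3, and the phosphatase subunit PPP1R15A (GADD34), which removes the phosphate again. ATF4 binds, with a C/EBP partner, a composite element in many of its targets. XBP1 and HSPA5 belong to the unfolded protein response of the endoplasmic reticulum, which shares its sensor PERK with this pathway.

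The promoters of genes the results turn on are printed from RefSeq of assembly GRCh38.p14, each as a stretch of 100 bases upstream of the most upstream start listed, in the direction of the gene. Windows from 250 bases before to 50 after a start were listed for 30 of the 36 genes. Capitals mark the C/EBP-ATF composite element, TGATGNAA on either strand, in ATF3, CHAC1 and ASNS. In CHAC1 it lies on the other strand.
ATF3, chr1:212565157-212565256, plus strand: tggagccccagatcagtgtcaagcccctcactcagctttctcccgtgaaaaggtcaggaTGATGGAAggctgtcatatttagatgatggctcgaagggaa
CHAC1, chr15:40953221-40953320, plus strand: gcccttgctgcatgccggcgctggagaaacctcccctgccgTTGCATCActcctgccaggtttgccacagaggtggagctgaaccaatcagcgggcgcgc
ASNS, chr7:97872409-97872508, minus strand: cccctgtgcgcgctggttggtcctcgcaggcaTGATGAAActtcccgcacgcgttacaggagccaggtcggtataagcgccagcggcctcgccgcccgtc
Capitals in HSPA5 and XBP1 mark the endoplasmic reticulum stress element, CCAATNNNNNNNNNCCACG, searched on both strands.
HSPA5, chr9:125241344-125241443, minus strand: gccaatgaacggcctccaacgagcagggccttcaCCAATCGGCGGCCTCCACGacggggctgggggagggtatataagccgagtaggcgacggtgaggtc
XBP1, chr22:28800570-28800669, minus strand: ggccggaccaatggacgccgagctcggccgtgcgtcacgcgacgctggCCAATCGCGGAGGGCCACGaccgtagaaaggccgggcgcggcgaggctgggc
The windows of DDIT3, TRIB3 and DDIT4 held neither run of letters, and the 100 bases before their start are given as examples of genes beyond 3 SD in KHOS, chosen after their values were seen.
DDIT3, chr12:57520518-57520617, minus strand: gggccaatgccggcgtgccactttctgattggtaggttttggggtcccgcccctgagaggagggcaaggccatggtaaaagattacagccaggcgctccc
TRIB3, chr20:381195-381294, plus strand: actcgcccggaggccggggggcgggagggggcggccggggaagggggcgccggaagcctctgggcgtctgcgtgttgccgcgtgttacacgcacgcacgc
DDIT4, chr10:72273824-72273923, plus strand: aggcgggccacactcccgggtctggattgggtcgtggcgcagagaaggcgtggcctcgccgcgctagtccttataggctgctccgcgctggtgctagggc
The composite element was found in 9 of the 30 genes (ATF3, CHAC1, ASNS, SLC7A1, SLC3A2, SLC1A5, CEBPG, JDP2 and HERPUD1), or 30.0%, and in 4.46% of all 27305 genes with windows. The endoplasmic reticulum stress element was found in HSPA5 and XBP1 and in 0.0916% of all genes. A match describes the sequence and is not a measured binding site. Sequence outside the windows was not searched, so that a gene without a match may hold the element elsewhere. Between nonspecific siRNA and untransfected KHOS cells, the log2 differences of the 9 genes with the composite element ran from 0.10 in SLC1A5 to 2.01 in ATF3, where most of the whole set was higher and JDP2 was near background. In U-2OS they ran from -0.65 in JDP2 to 0.26 in SLC3A2, with ATF3, SLC3A2 and HERPUD1 higher and the other 6 lower. Among the lower ones, a second probe set of CEBPG and of SLC7A1 was higher there, by 0.089 and 0.048.

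**Figure D1:**
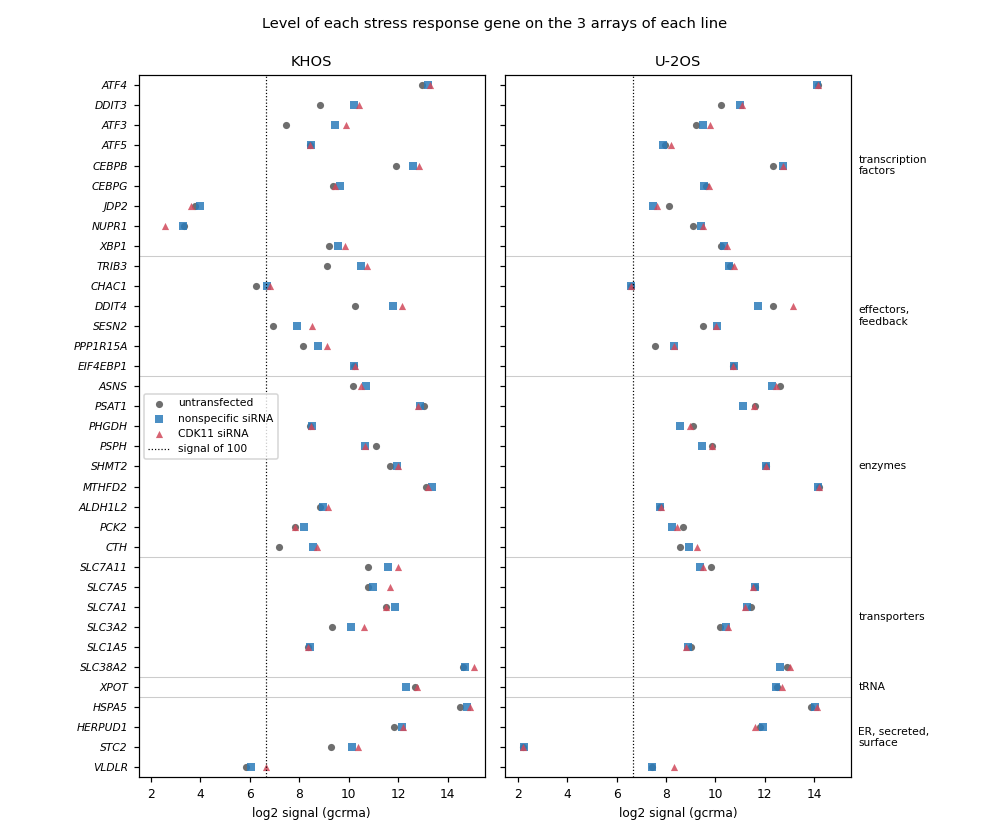
Log2 signal (gcrma) of the brightest probe set of the 35 genes on the 3 KHOS arrays (left) and the 3 U-2OS arrays (right), 1 array per point, ordered by role, with a dotted line at a signal of 100. STC2 was near 2.2 in U-2OS, and NUPR1 and JDP2 were below 4 in KHOS. ATF3 ran from 7.45 to 9.91 in KHOS and from 9.23 to 9.77 in U-2OS.

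Nonspecific siRNA compared with untransfected cells sets a transfection in which CDK11 was not targeted against none, on 1 array each per line. In KHOS, 31 of the 35 genes were higher after nonspecific siRNA and 4 lower, with a median log2 difference of 0.32. Over all 8878 genes 52% were higher and the median was 0.012. In U-2OS, 15 were higher and 20 lower, with a median of -0.023 that changed sign after centring or quantile normalization of the arrays, beside 49.1% higher and a median of -0.0053 over all genes. A difference was counted when a probe set lay beyond 3 SD of the differences of all probe sets above the limit, with bounds of -1.11 and 1.12 in KHOS and of -1.25 and 1.17 in U-2OS. In KHOS 7 of the 35 genes were higher by this measure, namely DDIT3, ATF3, DDIT4, TRIB3, SESN2, CTH and STC2, and none was lower. The arrays measured pooled cells, so that more RNA in every cell and more cells with that RNA cannot be told apart. The count was 20% of the set, where 1.34% of all genes were higher and 0.721% lower. In U-2OS none of the 35 lay beyond 3 SD, where 2.51% of all genes did in either direction.

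The factor at the head of the response differed little at the mRNA level. ATF4 stood at 12.98 in untransfected KHOS cells, 13.20 after nonspecific siRNA and 13.27 after CDK11 siRNA. In U-2OS its levels were 14.13, 14.11 and 14.13. All 3 U-2OS values were above all 3 KHOS values, and the siRNAs moved ATF4 by at most 0.29 in either line. Its control lies largely in translation, which arrays do not measure.

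DDIT3, the pro-apoptotic CHOP, was higher on the siRNA arrays of both lines. Its log2 levels in KHOS were 8.85 untransfected, 10.23 after nonspecific siRNA and 10.42 after CDK11 siRNA. In U-2OS they were 10.24, 11.00 and 11.09. In each line the untransfected array was the lowest and the siRNA arrays lay close together. Nonspecific siRNA was 2.61-fold higher than untransfected in KHOS and 1.69-fold higher in U-2OS. Over both lines limma gave a mean log2 difference of 1.07 (SE 0.21, 1 array per condition in each of 2 lines) with an adjusted p of 0.510.

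ATF3, a stress-induced repressor and activator of the same bZIP family, had the widest difference in KHOS. It stood at 7.45 untransfected, 9.46 after nonspecific siRNA and 9.91 after CDK11 siRNA, 4.04-fold and 5.50-fold higher than untransfected. In U-2OS its levels were 9.23, 9.48 and 9.77. The untransfected KHOS array was the low one, and the other 5 lay between 9.23 and 9.91. CEBPB, the C/EBP partner induced in the same response, was 1.64-fold higher after nonspecific siRNA in KHOS and 1.35-fold in U-2OS, inside the 3 SD bounds of both lines.

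The remaining transcription factors lay inside the 3 SD bounds of both lines. ATF5 and CEBPG had log2 differences between nonspecific siRNA and untransfected of 0.03 and 0.31 in KHOS and, in the other line, -0.11 and -0.082. XBP1, the factor of the unfolded protein response, was higher by 0.33 in KHOS and 0.13 in U-2OS. NUPR1 and JDP2 were near background in KHOS, where NUPR1 stood at 2.56 to 3.33 and JDP2 at 3.62 to 3.97. Both stayed in the KHOS counts and medians, at -0.022 for NUPR1 and 0.21 for JDP2. In U-2OS NUPR1, a stress-induced chromatin protein, differed by 0.33, and JDP2, a repressor of AP-1 and ATF sites, by -0.65.

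TRIB3, a pseudokinase induced by ATF4 and DDIT3 that feeds back on ATF4, stood at 9.13 in untransfected KHOS cells, 10.50 after nonspecific siRNA and 10.72 after CDK11 siRNA. In U-2OS the levels were 10.59, 10.55 and 10.77. The low array was that of untransfected KHOS cells, and the other 5 lay within 0.26 of each other. SESN2, a sestrin that restrains mTORC1, had levels of 6.93, 7.91 and 8.51 in KHOS and of 9.51, 10.06 and 10.04 in U-2OS. Its second probe set, at 4.99, 6.76 and 7.14 in KHOS and at 8.14, 8.68 and 8.81 in U-2OS, was the one beyond 3 SD. Both probe sets had the untransfected array as the lowest of each line.

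DDIT4 (REDD1), an inhibitor of mTORC1 that also responds to hypoxia and glucocorticoids, differed by more than 0.5 in opposite directions in the lines. In KHOS its levels were 10.28 untransfected, 11.80 after nonspecific siRNA and 12.14 after CDK11 siRNA. In U-2OS they were 12.33, 11.72 and 13.12. Nonspecific siRNA was 2.89-fold higher than untransfected in KHOS and 0.65-fold of it in U-2OS, where the nonspecific array was the lowest of the 3.

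PPP1R15A, the phosphatase subunit that ends the response, was higher after nonspecific siRNA in both lines. Its levels were 8.16, 8.75 and 9.14 in KHOS, against 7.53, 8.31 and 8.30 in U-2OS for untransfected, nonspecific and CDK11 siRNA. The untransfected array was the lowest in each line, and the limma mean difference was 0.69 (SE 0.14, adjusted p = 0.518). CHAC1, which breaks down glutathione, stayed close to the limit, at 6.23, 6.69 and 6.81 in KHOS and at 6.60, 6.56 and 6.57 in U-2OS. EIF4EBP1, the translation repressor 4E-BP1, spanned 0.56 over all 6 arrays and differed by 0.0027 in KHOS and 0.045 in U-2OS.

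Genes of amino acid and one-carbon synthesis, the best known metabolic targets of ATF4, lay inside the 3 SD bounds apart from CTH. ASNS, asparagine synthetase, had levels of 10.17, 10.68 and 10.49 in KHOS and of 12.61, 12.31 and 12.46 in U-2OS. It was higher after nonspecific siRNA than untransfected in KHOS, by 0.52, and lower in U-2OS, by a log2 difference of -0.31. CTH, cystathionine gamma-lyase, which makes cysteine, stood at 7.18, 8.56 and 8.74 in KHOS and at 8.56, 8.93 and 9.26 in U-2OS. It was 2.59-fold higher after nonspecific siRNA in KHOS and 1.29-fold in U-2OS, and the untransfected array was the lowest in each line.

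In the serine pathway, PSPH, phosphoserine phosphatase, was lower after nonspecific siRNA, at -0.44 in KHOS and -0.41 in U-2OS on the log2 scale. PSAT1, the aminotransferase before it, had differences of -0.15 and -0.47. PHGDH, the first enzyme of the pathway, differed by 0.065 and -0.52. By these probe sets all 3 were lower after nonspecific siRNA in U-2OS, where the other probe set of PSPH differed by 0.022. The mitochondrial one-carbon genes SHMT2, MTHFD2 and ALDH1L2 were higher by 0.15 to 0.32 in KHOS and differed by -0.034 to 0.0076 in U-2OS. PCK2, mitochondrial phosphoenolpyruvate carboxykinase, differed by 0.37 in KHOS and -0.43 in U-2OS. Over the 9 enzymes the median was 0.24 in KHOS and -0.31 in U-2OS.

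Among the amino acid transporters the subunits of the cystine carrier differed most in KHOS. SLC7A11, its light chain, had levels of 10.77, 11.59 and 12.00 in KHOS and of 9.83, 9.37 and 9.49 in U-2OS. SLC3A2, the heavy chain it shares with SLC7A5, had levels of 9.31, 10.10 and 10.63 in KHOS and of 10.17, 10.42 and 10.53 in U-2OS. In KHOS both had the untransfected array lowest and the CDK11 siRNA array highest, and in U-2OS SLC7A11 had the untransfected array highest. SLC7A5, a carrier of large neutral amino acids, SLC7A1, of cationic amino acids, and SLC1A5, of glutamine, differed between nonspecific siRNA and untransfected by 0.21, 0.39 and 0.097 in KHOS and by -0.0094, -0.17 and -0.13 in U-2OS. SLC38A2, the system A carrier SNAT2, had levels of 14.62, 14.73 and 15.07 in KHOS and of 12.91, 12.60 and 13.00 in U-2OS.

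XPOT, which exports tRNA from the nucleus, was lowest on the nonspecific siRNA array of each line, at 12.68, 12.31 and 12.74 in KHOS and at 12.51, 12.45 and 12.69 in U-2OS. STC2, a secreted stanniocalcin, stood at 9.30, 10.14 and 10.38 in KHOS and at 2.20, 2.24 and 2.23 in U-2OS, where it was near background. Its second probe set, at 7.54, 8.75 and 9.13 in KHOS, was the one beyond 3 SD. The endoplasmic reticulum genes HSPA5, the chaperone BiP, and HERPUD1, of the degradation machinery, were higher after nonspecific siRNA by 0.29 and 0.33 in KHOS and, in the other line, by 0.16 and 0.14.

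**Figure D2:**
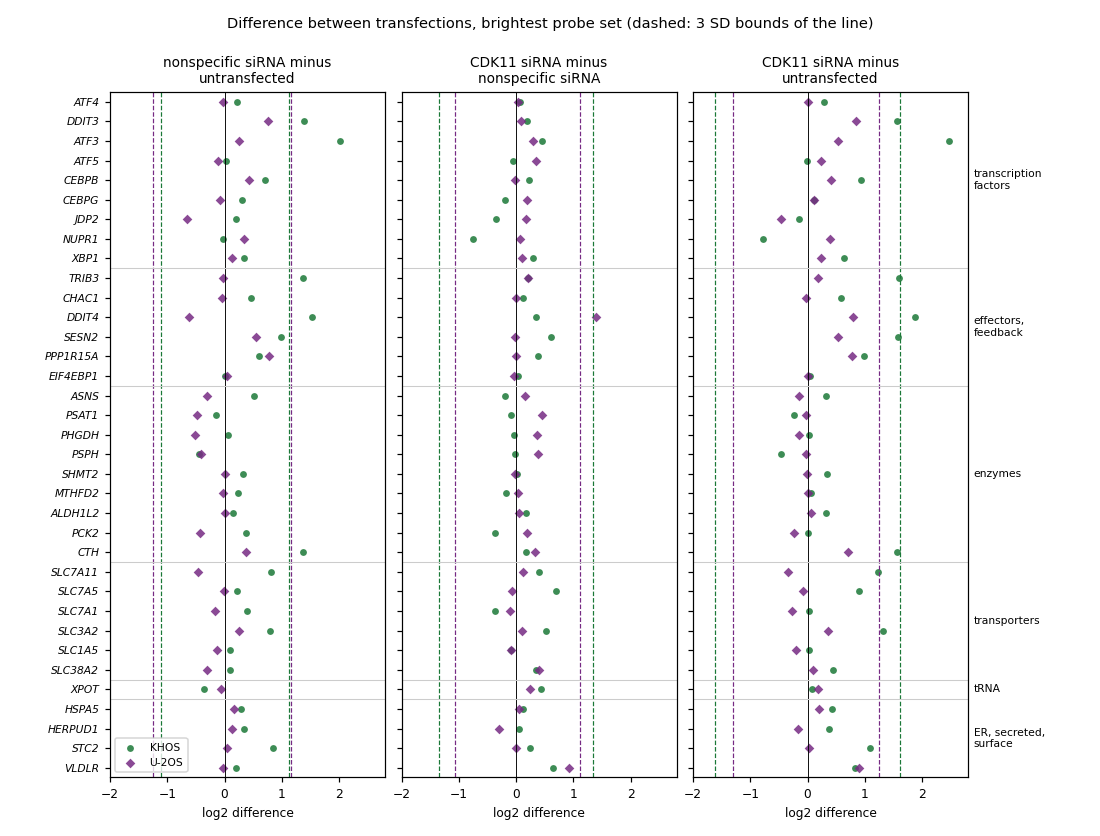
Log2 differences of the brightest probe set of the 35 genes for nonspecific siRNA minus untransfected, CDK11 siRNA minus nonspecific siRNA and CDK11 siRNA minus untransfected, with KHOS as circles and U-2OS as diamonds. Dashed lines mark the 3 SD bounds of each line. On the left, ATF3 (2.01), DDIT4 (1.53), DDIT3 (1.39), CTH (1.37) and TRIB3 (1.37) lie beyond the upper bound in KHOS, and SESN2 and STC2 lie inside it with this probe set. In the middle DDIT4 in U-2OS (1.40) is the only point beyond a bound.

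CDK11 siRNA set against nonspecific siRNA compares the targeting sequence with a like transfection. With 1 array per condition and line, differences between arrays and action of the siRNA on other genes cannot be told apart from an effect on CDK11. This comparison shares the nonspecific siRNA array of each line with the comparison above. Differences were small. In KHOS 23 of the 35 genes were higher and 12 lower after CDK11 siRNA, with a median of 0.13, beside 50.4% higher over all genes. In U-2OS 25 were higher and 10 lower, with a median of 0.096, beside 51.8%. No gene of the set lay beyond 3 SD in KHOS, with bounds of -1.35 and 1.35, where 1.95% of all genes did. In U-2OS the bounds were -1.07 and 1.12, and DDIT4 was the only gene beyond them, where 1.52% of all genes were higher and 1.37% lower.

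DDIT4 was 2.64-fold higher after CDK11 than after nonspecific siRNA in U-2OS, a log2 difference of 1.40, and 1.27-fold higher in KHOS. The CDK11 siRNA array was the highest of each line, as the levels above show. In U-2OS the nonspecific siRNA array stood at -0.61 relative to untransfected, and the CDK11 siRNA array at 0.79. The limma mean over both lines was 0.87 (SE 0.50, adjusted p = 0.506).

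VLDLR, the very low density lipoprotein receptor, a target of ATF4, was higher by more than 0.5 in both lines. It was the only such gene, 1 of the 35, a share near the 2.14% of all genes. Its levels in KHOS were 5.83 untransfected, 6.03 after nonspecific siRNA and 6.67 after CDK11 siRNA. In U-2OS they were 7.44, 7.41 and 8.34. The controls lay within 0.20 of each other in each line, and the CDK11 siRNA array was 1.55-fold higher than nonspecific siRNA in KHOS and 1.90-fold in U-2OS. In KHOS only the CDK11 siRNA array was above the signal limit. The limma mean difference was 0.78 (SE 0.13), with an adjusted p of 0.171.

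No other gene of the set was higher by more than 0.5 in both lines. SLC7A5 was higher after CDK11 siRNA by 0.69 in KHOS and differed by -0.078 in U-2OS, and SESN2 by 0.60 and -0.019. SLC3A2 differed by 0.52 and 0.10. In these 3 the difference in KHOS was the larger. SLC38A2 was higher by 0.34 and 0.40, and all 3 of its probe sets were higher in both lines. XPOT was higher by 0.43 and 0.24, but its second probe set differed by -0.049 and 0.11. The probe sets of XPOT thus differed in sign in KHOS. DDIT3, TRIB3 and ATF4 were higher by 0.18, 0.22 and 0.071 in KHOS and by 0.088, 0.21 and 0.027 in U-2OS. ASNS differed by -0.20 and 0.16. The 9 enzymes had a median of -0.040 in KHOS, where 3 were higher, and of 0.19 in U-2OS, where 8 were higher. Among these, PSAT1, PHGDH and PSPH were higher by 0.45, 0.37 and 0.38 in U-2OS and differed by -0.090, -0.040 and -0.024 in KHOS. The nonspecific siRNA array of these probe sets was the lowest of the 3 in U-2OS. The other PSPH probe set differed by -0.059 there, and its nonspecific siRNA array was the highest.

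CDK11 siRNA compared with untransfected cells holds both steps, and it shares the untransfected array of each line with the first comparison. In KHOS 30 of the 35 genes were higher, with a median of 0.38 beside 49.9% higher over all genes, and DDIT4, ATF3 and SESN2 lay above the 3 SD bound of 1.62. None lay below the other bound, -1.61. Over all genes 1.37% were higher and 0.856% lower by this measure. Beyond 1 log2 unit there were 9 higher, DDIT3, DDIT4, ATF3, TRIB3, SESN2, CTH, SLC7A11, SLC3A2 and STC2, beside 3.04% of all genes. In U-2OS 22 were higher with a median of 0.054, beside 51.1% higher over all genes, and none lay beyond 3 SD, where 2.52% of all genes did in either direction. DDIT3, DDIT4, ATF3, SESN2, CTH, PPP1R15A and VLDLR were higher by more than 0.5 in both lines, 7 of 35 beside 2.76% of all genes, and none was lower by that amount, beside 3.76%. For nonspecific siRNA against untransfected the genes higher by more than 0.5 in both lines were DDIT3, SESN2 and PPP1R15A, beside 0.924% of all genes.

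**Figure D3:**
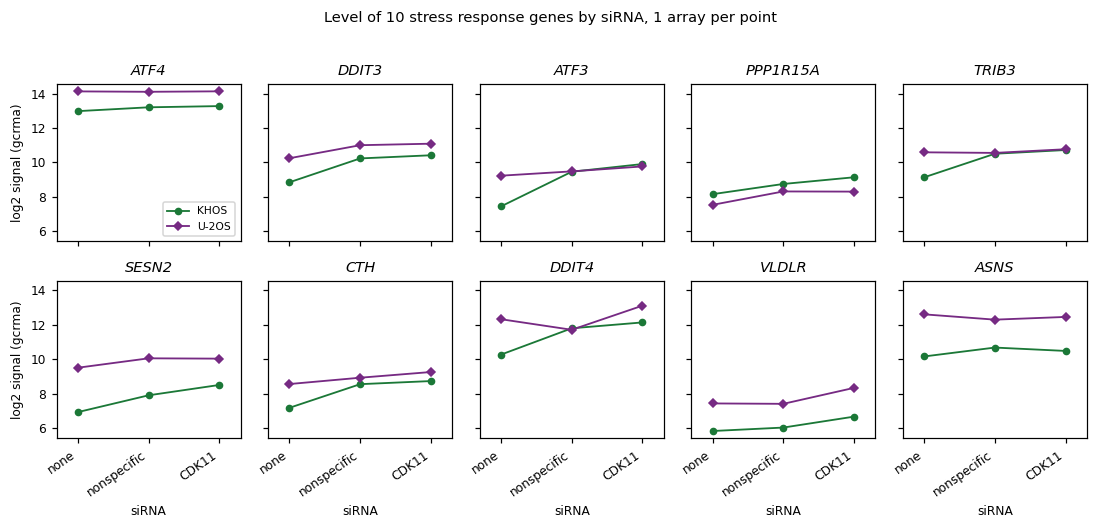
Log2 signal (gcrma) of 10 genes without siRNA, after nonspecific siRNA and after CDK11 siRNA, in KHOS (circles) and U-2OS (diamonds), 1 array per point. The untransfected array is the lowest of its line for DDIT3, ATF3, PPP1R15A, SESN2 and CTH in both lines. TRIB3 has 1 low array, that of untransfected KHOS cells at 9.13, and VLDLR is higher on the CDK11 siRNA arrays.

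With the lines standing as replicates of each transfection, the only test the design allowed was limma, blocked by line, on 2 residual degrees of freedom. At an adjusted p of 0.05 it called 0 of the 8878 genes, and so 0% of all genes and none of the 35, in each of the 3 comparisons. The genes with an unadjusted p under 0.05 numbered 1205 for CDK11 siRNA against nonspecific siRNA, 751 for nonspecific siRNA against untransfected and 1625 for CDK11 siRNA against untransfected. Of the set these were VLDLR alone in the first comparison, which was higher, beside 6.52% of all genes. In the second they were DDIT3, PPP1R15A, CEBPB, SESN2 and CTH, which were higher, and PSPH, which was lower, beside 3.81% of all genes higher and 4.65% lower. In the third they were 10 genes, all higher, namely ATF3, CEBPB, CTH, DDIT3, DDIT4, PPP1R15A, SESN2, SLC3A2, VLDLR and XBP1, beside 8.7% of all genes. The smallest adjusted p of the set was 0.126, for VLDLR between CDK11 siRNA and untransfected, with a mean log2 difference of 0.87 (SE 0.13). With a trended variance prior, limma called 119, 5 and 279 genes, and of the set only CEBPB, DDIT3 and PPP1R15A in the third comparison.

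**Figure D4:**
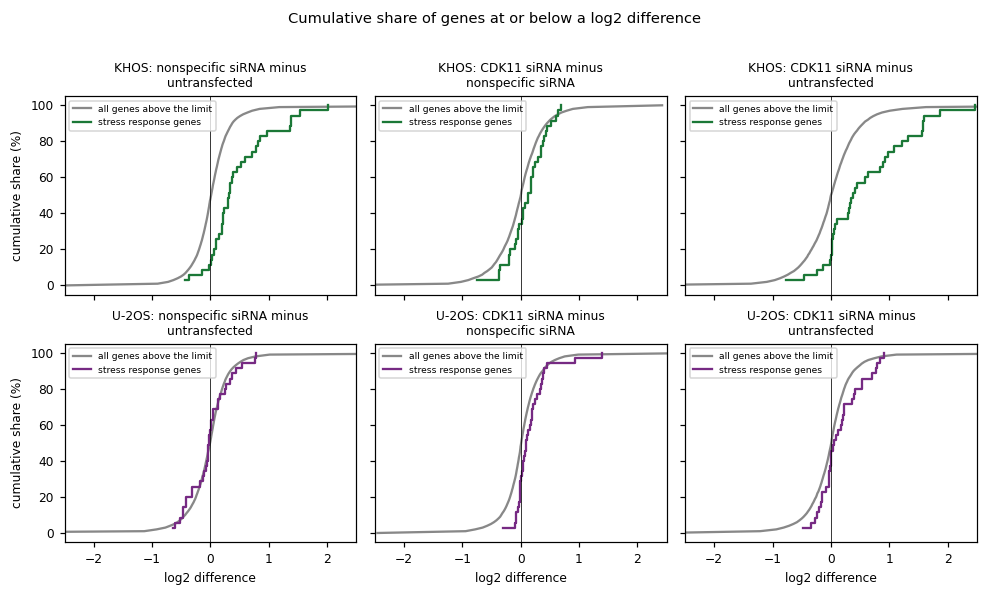
Cumulative share of genes, in percent, at or below a log2 difference, for the 35 genes (coloured steps) and for all genes above the limit (grey), in KHOS (top) and U-2OS (bottom). For nonspecific siRNA minus untransfected the KHOS steps lie to the right of the grey line, with a median of 0.32 beside 0.012, and in U-2OS both medians are near 0, at -0.023 and -0.0053.

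The lines themselves differed in many genes of the set, a share near that of all genes. In limma 22 of the 35 genes differed between KHOS and U-2OS over the 3 transfections at an adjusted p of 0.05, or 62.9%, beside 71.7% of all genes. Higher in KHOS, beside 38.3% of all genes, were the 9 genes ALDH1L2, ATF5, HSPA5, PPP1R15A, PSAT1, PSPH, SLC38A2, SLC7A11 and STC2. Higher in U-2OS, beside 33.3%, were the 13 genes ASNS, ATF4, CTH, DDIT3, EIF4EBP1, JDP2, MTHFD2, NUPR1, PCK2, SESN2, SLC1A5, VLDLR and XBP1. The signal filter used the highest of the 6 arrays. JDP2 and NUPR1 passed it only through U-2OS, and STC2 only through KHOS, so that their line differences were built into that choice. ASNS was higher in U-2OS, with a log2 difference of KHOS minus U-2OS of -2.02 (SE 0.18, limma adjusted p = 0.000587). SESN2 was also higher there, with -2.09 (SE 0.22, limma adjusted p = 0.000979). SLC38A2 was higher in KHOS, by 1.97 (SE 0.12, limma adjusted p = 0.000211). The genes ATF3, TRIB3 and DDIT4, which were lowest on the untransfected KHOS array, did not pass, with limma adjusted p-values of 0.274, 0.200 and 0.0857. The 3 arrays of a line were different transfections and not replicates. These p-values thus rest only on how far the difference between the lines varied over the 3 transfections.

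The genes around the set were read from fixed lists. All 18 genes for the eIF2 kinases, eIF2, eIF2B and the phosphatase were above the limit. None lay beyond 3 SD between the siRNAs or between nonspecific siRNA and untransfected in either line. Over all genes 1.95% to 2.89% did, in either direction. The kinase EIF2AK4 (GCN2), which senses uncharged tRNA, was lower after CDK11 than after nonspecific siRNA, at -0.51 in KHOS and -0.37 in U-2OS. PPP1R15B, the constitutive counterpart of PPP1R15A, had differences of -0.53 and -0.92. DNAJC3, an inhibitor of these kinases, was the only gene of the list beyond 3 SD between CDK11 siRNA and untransfected. This was in U-2OS, where 1.04% of all genes were higher, and not by its brightest probe set, which was higher by 0.40. EIF2AK2 (PKR), the kinase that binds double-stranded RNA, differed between nonspecific siRNA and untransfected by 0.43 in KHOS and 0.0040 in U-2OS, and EIF2AK3 (PERK) by 0.46 and -0.15. Of 17 aminoacyl-tRNA synthetases above the limit, a class that ATF4 also raises, none lay beyond 3 SD in any comparison, beside 1.95% to 2.89% of all genes. After nonspecific siRNA 16 were higher than untransfected in KHOS, with a median of 0.087, beside 52% of all genes. In U-2OS 7 were higher and 10 lower, with a median of -0.024, beside 49.1% higher. The largest difference in KHOS was that of WARS1, tryptophanyl-tRNA synthetase, at 0.80, with -0.17 in U-2OS. Between the siRNAs, FARSA, a subunit of phenylalanyl-tRNA synthetase, differed by -0.50 in KHOS and -0.29 in U-2OS, and HARS1, histidyl-tRNA synthetase, by 0.22 and 0.23.

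Of 19 genes of the ATF6 and XBP1 arms of the unfolded protein response, all were higher after CDK11 siRNA than untransfected in KHOS. Their median was 0.30, beside 49.9% of all genes higher. In U-2OS 15 were higher, with a median of 0.083, beside 51.1%. After nonspecific siRNA 16 were higher than untransfected in KHOS (median 0.28, beside 52%) and 13 in U-2OS (median 0.087, beside 49.1%). Between the siRNAs 10 were higher and 9 lower in KHOS, with a median of 0.0056. In U-2OS 11 were higher and 8 lower, with a median of 0.0088. Over all genes 50.4% and 51.8% were higher. DNAJB9, a chaperone of the endoplasmic reticulum, was the only gene of that list beyond 3 SD, in KHOS with either siRNA against untransfected. By this measure 1.34% of all genes were higher there after nonspecific siRNA and 1.37% after CDK11 siRNA. DNAJB9 had log2 levels of 8.68, 9.97 and 10.38 in KHOS and of 8.37, 9.08 and 8.81 in U-2OS. The untransfected array was the lowest in each line. ERN1 (IRE1), the sensor that splices XBP1 mRNA, and EDEM1, of the degradation machinery, had the list's largest mean differences of like sign between the siRNAs. ERN1 was higher after CDK11 than after nonspecific siRNA by 0.90 in KHOS and 0.33 in U-2OS, and EDEM1 by 0.77 and 0.55. Neither passed the limma test, with adjusted p-values of 0.414 and 0.210. Among the lower genes, SDF2L1, HSP90B1 and MANF differed by -0.38, -0.29 and -0.18 in KHOS and by -0.26, -0.28 and -0.16 in U-2OS.

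Of the 12 genes with several probe sets above the limit, all 12 had probe sets of like sign for nonspecific siRNA against untransfected in KHOS and 8 in U-2OS, but 6 and 7 for CDK11 against nonspecific siRNA. The brightest probe set was above the limit on all 6 arrays for 30 genes, and CHAC1, JDP2, NUPR1, STC2 and VLDLR were at or below it on at least 1 array. The 3′ minus 5′ log2 difference of the GAPDH control, a measure of RNA integrity, lay between 0.35 and 0.49 on the KHOS arrays and between 0.27 and 0.32 on the U-2OS arrays. That of the ACTB control was wider, at 3.63 to 3.87 on the KHOS arrays and 3.38 to 3.63 on the U-2OS arrays. The part of RNA integrity in the differences was not tested.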

How the data were processed

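Gene expression of KHOS and U-2OS cells was profiled on Affymetrix U133 Plus 2.0 arrays, 1 array for each of 3 conditions per line, and their number limits the precision. Values deposited by the authors are log2 signals from gcrma (background correction, quantile normalization and probe set summary). All 54675 probe sets were used. The study's present and absent calls were not used here, so that probe sets near background on some arrays may be kept. Those with a highest value over 6.64 were kept (16397), and 14441 of them had 1 gene. Of 41097 probe sets with 1 platform symbol, 41043 were updated by gene ID through RefSeq (GRCh38.p14). A shared probe set of PHGDH was left out. A gene is given by its brightest probe set on average, and any of its kept probe sets could count beyond 3 SD.

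Differences of 2 arrays carry no p-value. limma 3.58.1 in R 4.3.3 was fitted with line as a block and Benjamini-Hochberg adjustment over 8878 genes, two-sided, and checked on simulated data. Its p-values for the transfections measure how far their differences varied between the 2 lines. The genes and lists were chosen with earlier results of these data known. Values on all arrays were given for 13 genes by rule: ATF4, DDIT3, TRIB3, ASNS, CHAC1, those beyond 3 SD and, in each role, that with the largest mean difference between the siRNAs. PPP1R15A, SLC7A11, SLC3A2, DNAJB9, DNAJC3, EIF2AK2, EIF2AK3, WARS1, SDF2L1, HSP90B1, MANF, HMOX1 and RUNX2 were added after their values were seen. The other list genes are those with the largest mean difference of like sign in both lines between the siRNAs. A list of NRF2 targets is given in the closing section. Alternatives covered the filter, the threshold, the probe set rule, the variance prior and the arrays. Python 3.11.15, numpy 2.4.6, pandas 2.3.3 and matplotlib 3.10.9 were used.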

Additional observations from a re-analysis of the deposited data

Results flagged for a closer look

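DDIT4 moved in opposite directions in the lines. Its log2 difference between nonspecific siRNA and untransfected cells was 1.53 in KHOS and -0.61 in U-2OS, with 1 array per condition, and this difference between lines was not tested.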

How the results depend on the processing

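The KHOS count of 7 genes higher after nonspecific siRNA than untransfected ran from 5 to 10 over the alternatives, and the median of the set there from 0.31 to 0.35. The U-2OS median of -0.023 in that comparison changed sign, to 0.014 after centring the arrays and 0.013 after quantile normalization. Centring also turned the sign of small U-2OS values of ATF4, TRIB3 and VLDLR in that comparison and of CHAC1 between the siRNAs. The mean of probe sets turned that of SESN2 between the siRNAs in U-2OS and, against untransfected, of CDK11 siRNA values of STC2 in U-2OS and of XPOT in both lines. The other counts were small and moved with the settings. For CDK11 siRNA against nonspecific siRNA, the count beyond 3 SD was 1 in KHOS without a filter, and in U-2OS 2 without a filter, at 2 SD and with a robust SD. For nonspecific siRNA against untransfected in U-2OS it was 1 without a filter, with a filter on the mean, at 2 SD, with a robust SD and at 1 log2 unit. For CDK11 siRNA against untransfected in KHOS it was 10 without a filter, at 2 SD, with a robust SD and at 1 log2 unit, 7 with a filter at a signal of 200, 6 with a filter on the mean and 2 by the brightest probe set. In U-2OS it was 1 without a filter, with a filter at 200, with a filter on the mean and at 1 log2 unit, 3 at 2 SD and 2 with a robust SD. At 1 log2 unit, in place of 0.5, 0 genes were higher in both lines in each of the 3 comparisons.

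In limma a filter on the mean gave 15 genes for CDK11 siRNA against nonspecific siRNA and 35 for CDK11 siRNA against untransfected, none of the set. The trended prior gave 119, 5 and 279 genes and 0, 0 and 3 of the set. Leaving out 1 array gave 0 to 1 genes for nonspecific siRNA against untransfected, with 1 without untransfected KHOS and 1 without untransfected U-2OS, and 0 to 1 for CDK11 siRNA against untransfected, with 1 without untransfected U-2OS. The cause of these moves was not tested. Of 156 values of the 13 genes named by rule, recomputed under the alternatives, 144 moved by less than 0.1 and 12 by more. With 1 array per condition the spread within a line is unknown.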

Other observations

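HMOX1, heme oxygenase 1, was the only gene of a list of NRF2 targets beyond 3 SD, in KHOS with either siRNA against untransfected. By this measure 1.34% of all genes were higher there after nonspecific siRNA and 1.37% after CDK11 siRNA. HMOX1 stood on the log2 scale at 4.46 untransfected, 6.10 after nonspecific siRNA and 6.14 after CDK11 siRNA in KHOS, under the limit throughout. In U-2OS its levels were 8.78, 9.27 and 9.28. The untransfected array was the lowest in each line. The other 9 NRF2 targets above the limit lay inside 3 SD in every comparison. TXNRD1, thioredoxin reductase, was lower after CDK11 than after nonspecific siRNA, at a log2 difference of -0.26 in KHOS and -0.56 in U-2OS, and SRXN1, sulfiredoxin, had differences of -0.013 and -0.56.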
